A study of Mus musculus with 9 samples.

Results

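The 6 actin genes of the mouse were followed in C2C12, a long-established mouse muscle precursor line, given butyrate, given pentanoate or kept as control. All 6 were found by gene name in the deposited table, 1 line each among 54697 lines, and all 6 were among the 14066 genes that could be tested. Each group had 3 RNA-seq libraries of wild-type cells, labelled as day 2. Both acids were used at 750 µM for 48 h on attached cells from cultures kept in DMEM with fetal bovine serum. No source used here states what was added to the controls. Butyrate and pentanoate are straight-chain fatty acids that differ by a single carbon. The series title asks for myogenic effects of these acids. Totals per library ran from 15829262 to 19305981 counts, and control 3 had the highest share of mitochondrially encoded counts, 3.95% against 1.79% to 2.32% in the other 8 libraries. Nothing in the labels ties the 3 libraries of a group to 3 cultures, so p-values measure only the spread between these libraries, which may be technical. All cells come from 1 line.

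Actin is the protein of thin filaments, and mammals make it from 6 genes whose products are almost the same protein. Actb and Actg1 encode the beta and gamma cytoplasmic actins of the cytoskeleton, found in nearly every cell. Acta1 encodes skeletal and Actc1 cardiac alpha-actin, the thin-filament actins of striated muscle, and developing skeletal muscle makes both. Acta2 encodes the alpha-actin and Actg2 the gamma-actin of smooth muscle, and Acta2 is also made by myoblasts and by myofibroblasts. Several actin genes are targets of serum response factor (SRF), which binds the CArG box and works with the coactivators MRTF-A and MRTF-B. MRTF binds free actin monomers, so the actin pool feeds back on this transcription.

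The genes lie on 6 chromosomes and all on the minus strand (GRCm38 coordinates of the deposited table). Actb (ENSMUSG00000029580) is at chr5:142903115-142906754, Actg1 (ENSMUSG00000062825) at chr11:120345690-120348542 and Acta2 (ENSMUSG00000035783) at chr19:34241090-34255336. Actg2 (ENSMUSG00000059430) is at chr6:83512905-83536265, Acta1 (ENSMUSG00000031972) at chr8:123891769-123894751 and Actc1 (ENSMUSG00000068614) at chr2:114047282-114053548. Lines that overlap a member in the table (Gm23419 and Mir6935 in Actg1, Gm20388 across Acta1, A530058N18Rik across Actc1) had 0 counts in all 9 libraries. No source used here states whether counting used the strand.

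Since the proteins are so alike, the first question is whether reads of 1 actin gene can be told from those of another. The first 60 coding bases of the main GENCODE M21 transcript of each gene (GRCm38) show how far they differ. They are written 5′ to 3′, and capitals mark bases that differ from Acta2 in a pairwise alignment of the coding parts.
Acta2, chr19:34252494-34252553: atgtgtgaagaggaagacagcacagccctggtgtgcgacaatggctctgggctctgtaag
Actg2, chr6:83527382-83527441: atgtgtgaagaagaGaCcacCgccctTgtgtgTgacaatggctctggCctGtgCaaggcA
Acta1, chr8:123893638-123893697: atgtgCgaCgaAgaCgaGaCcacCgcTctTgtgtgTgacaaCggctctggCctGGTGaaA
Actc1, chr2:114051972-114052031: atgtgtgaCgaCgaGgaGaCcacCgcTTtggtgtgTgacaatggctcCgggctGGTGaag
Actb, chr5:142905627-142905686: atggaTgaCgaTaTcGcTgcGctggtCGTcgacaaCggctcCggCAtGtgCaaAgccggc
Actg1, chr11:120348032-120348091: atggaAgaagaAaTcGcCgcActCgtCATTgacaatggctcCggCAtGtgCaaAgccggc

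Over the whole coding part, of 1125 to 1131 bases, any pair of the 6 genes matched at 81.5% (Actg1 and Acta2) to 88.6% (Actb and Actg1) of aligned positions. Acta2 and Actg2 matched at 84.2%, and their longest identical run was 29 bases. Acta1 and Actc1 matched at 86.3%, also with a longest run of 29 bases. Between 2 muscle actins no identical run exceeded 38 bases (Actc1 and Actg2), so no window of 50 bases was common to any pair of the 4 muscle actins. The longest run between any 2 of the genes was 77 bases, between Actb and Acta1.

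Windows of 50 bases were then looked up in all M21 transcripts. None of the 1082 coding windows of Actc1 and none of the 1079 of Actg2 occurred in a transcript of another gene. Of Acta2's coding windows 0.647% did, and of Acta1's 2.87%. For Actb it was 19.7%, and for Actg1 all 1076 (100%). At 100 bases it was 0% for the 4 muscle actins, 1.95% for Actb and 91.9% for Actg1, and no 100-base window was shared by 2 of the 6 genes. No source used here states the read length or how reads with several matches were counted. Of Acta1, 28 of the 1082 coding windows of 50 bases were also in Actb and 10 in Actg1, both of which had far more counts than it in every library. Their part in the Acta1 values was not tested.

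At 50 bases Actb shared most with the protein-coding gene Lrrc58 and the pseudogene Gm15725, each holding 11.7% of Actb's coding windows. The lines of Lrrc58 and Gm15725 took 20169 and 0 counts over the 9 libraries. The sharing of Actg1 was mainly with processed pseudogenes, copies of its transcript elsewhere in the genome. Gm12715 held 90.1% of its 50-base coding windows, Gm8399 62.9% and Actg-ps1 39.4%. Their lines in the table took 7672, 1299 and 64 counts over the 9 libraries, beside 493870 for Actg1 itself. Gm12715 stood at a log2 change of −0.39 with butyrate against control (edgeR, adjusted p = 0.0924) and Gm8399 at −0.93 (adjusted p = 0.0129). With both of these lines added to Actg1, the change of Actg1 with butyrate was −0.39 (edgeR, adjusted p = 0.0329) and without them −0.39 (adjusted p = 0.034). That sum was chosen after the data were seen.

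**Figure D1:**
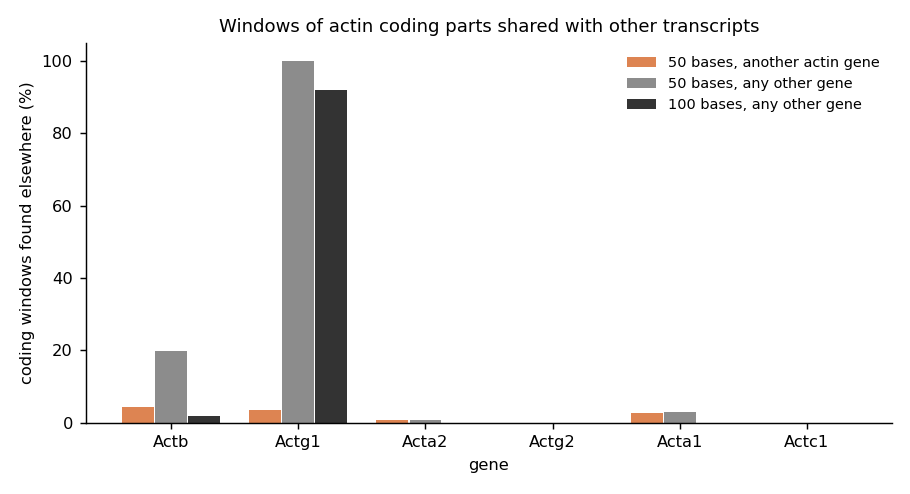
Share of the windows of each actin gene's coding part (y axis, in %) that also occur in a transcript of another actin gene or of any other gene, for windows of 50 and 100 bases (x axis, gene). Actg1 reaches 100% and 91.9% for any other gene, Actb 19.7% and 1.95%, and Actc1 and Actg2 are at 0%.

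The upstream sequences are shown because the SRF axis is a known regulator of actin genes. RefSeq promoters (GRCm38.p6) were found for 4 of the 6 genes (Acta1, Acta2, Actc1 and Actg1). The 250 bases before the RefSeq start follow, 5′ to 3′ on the gene's strand. This start differs from that of the deposited gene span. The Actc1 window lies inside the deposited span, the Actg1 window overlaps it, and those of Acta1 and Acta2 end short of it. Motif positions therefore depend on the start used. Capitals mark CArG boxes (CC, then 6 letters that are each A or T, then GG), the motif TATAAA, and CArG-like copies with 1 C or G among the middle letters.
Acta2, chr19:34255374-34255623: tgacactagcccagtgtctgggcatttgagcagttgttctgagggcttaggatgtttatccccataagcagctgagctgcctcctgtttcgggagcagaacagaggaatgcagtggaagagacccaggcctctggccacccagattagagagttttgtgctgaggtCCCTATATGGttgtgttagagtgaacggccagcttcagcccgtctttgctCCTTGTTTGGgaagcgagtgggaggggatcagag
Acta1, chr8:123894776-123895025: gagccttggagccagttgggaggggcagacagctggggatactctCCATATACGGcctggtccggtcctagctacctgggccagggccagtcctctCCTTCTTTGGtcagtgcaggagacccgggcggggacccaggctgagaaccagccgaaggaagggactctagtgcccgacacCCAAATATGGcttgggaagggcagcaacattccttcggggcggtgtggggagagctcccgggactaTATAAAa
Actc1, chr2:114052876-114053125: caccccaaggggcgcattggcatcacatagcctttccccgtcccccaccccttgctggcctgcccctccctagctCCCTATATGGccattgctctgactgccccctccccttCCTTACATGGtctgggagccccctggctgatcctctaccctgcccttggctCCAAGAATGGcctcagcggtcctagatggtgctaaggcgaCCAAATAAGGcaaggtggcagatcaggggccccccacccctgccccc
Actg1, chr11:120348496-120348745: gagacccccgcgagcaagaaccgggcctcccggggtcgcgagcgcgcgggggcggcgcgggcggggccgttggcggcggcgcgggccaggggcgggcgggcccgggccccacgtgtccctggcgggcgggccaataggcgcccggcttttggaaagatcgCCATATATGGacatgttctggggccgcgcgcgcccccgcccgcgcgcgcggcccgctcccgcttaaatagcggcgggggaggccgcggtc

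An intact CArG box was found in 3 of these 4 windows, in Acta1 at −73 to −64, in Actc1 at −47 to −38 and in Actg1 at −90 to −81 from the start. Acta2 had CArG-like copies, at −84 to −75 and −34 to −25, and no intact box. Acta1 held 2 more CArG-like copies and Actc1 held 3, and Actg1 had none. Over all 32851 promoter windows of this length, on both strands, 1.47% held an intact box and 8.59% a box or a CArG-like copy. CATTCC, the M-CAT motif of TEAD factors, occurred in Acta1 and Acta2 and in 12.6% of all windows. CANNTG, the E-box bound by MyoD and its relatives, occurred 3 times in Acta2, 2 times in Acta1, once in Actg1 and not in Actc1, and in 66.2% of all windows. TATAAA occurred in the window of Acta1 alone of the 4, at −7 to −2 from the RefSeq start, and in 12.4% of all windows. For Acta1 and Acta2 the bases between that start and the deposited gene span were not searched. GGGCGG occurred 6 times in Actg1, 2 times in Acta1 and in 32.7% of all windows. No hit overlapped a hit of another motif. These are matches of letters, and binding was not measured.

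With butyrate, smooth muscle Acta2 fell by 55.5% and smooth muscle Actg2 fell by 50.6%, and the rare skeletal actin Acta1 fell by 83.3% (edgeR, adjusted p = 0.000161, 0.0012 and 0.000161). Cardiac Actc1 was also called lower, at 3 to 13 counts per butyrate library, and cytoplasmic Actg1 fell by 23.6%. No actin gene was called with pentanoate against control. Actin RNA was abundant, and nearly all of it came from 3 of the 6 genes. The 6 genes took 1.24% ± 0.0914 of all counts in control, 0.882% ± 0.0804 with butyrate and 1.19% ± 0.0733 with pentanoate (SD, n = 3 each). The 3 butyrate values, 0.796% to 0.955%, lay below all 6 others, which ran from 1.11% to 1.34%. An exact permutation test, two-sided, gave p = 0.1 for butyrate against either other group, the smallest p that 3 against 3 libraries can give, and p = 0.4 for pentanoate against control.

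Per kilobase of the deposited gene length, control levels were highest for Acta2, at 2061 ± 156 CPM per kb, then Actb at 1918 ± 205 and Actg1 at 1310 ± 64.0 (SD, n = 3). CPM is the count scaled to the library's size, here with TMM factors. Actg2 followed at 203 ± 23.8, Acta1 at 7.27 ± 0.558 and Actc1 at 1.81 ± 0.738. Acta2 and Actb did not differ beyond their spread, and Actb was the higher of them in control 2. With butyrate the order was Actb (1597 ± 194), Actg1 (1001 ± 95.9), Acta2 (918 ± 79.8), Actg2 (100.5 ± 14.7), Acta1 (1.21 ± 0.297) and Actc1 (0.244 ± 0.198), where Actg1 and Acta2 lay within their spread of each other although Actg1 was the higher in each library. With pentanoate Actb (1907 ± 100) and Acta2 (1783 ± 124) were again within their spread, ahead of Actg1 (1247 ± 113), Actg2 (189 ± 22.2), Acta1 (5.42 ± 1.10) and Actc1 (0.722 ± 0.462).

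The place of Acta2 among these genes depends on the length used, in all 3 groups. With the lengths of the main M21 transcripts, 2035 bases for Acta2 and 1920 for Actb, the control levels were 1804 ± 136 for Acta2, 2676 ± 286 for Actb and 1783 ± 87.2 CPM per kb for Actg1. With butyrate the M21 lengths gave 2228 ± 271 for Actb, 1363 ± 131 for Actg1 and 803 ± 69.8 for Acta2. Acta2 then lay below Actg1 by more than their spread. With pentanoate they gave 2661 ± 140 for Actb, 1698 ± 154 for Actg1 and 1561 ± 109 for Acta2. Acta2 was then far below Actb and not ahead of Actg1. The deposited lengths are 1781 bases for Acta2, 2679 for Actb and 2658 for Actg1.

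Acta2, smooth muscle alpha-actin, measured 3905, 3744 and 3365 CPM in controls 1 to 3, 1771, 1645 and 1487 with butyrate and 3396, 3179 and 2954 with pentanoate. All butyrate libraries lay far below the other groups, and 1 pentanoate library reached into the control range. With butyrate it fell by 55.5%, a log2 change of −1.17 (95% interval −1.39 to −0.94), and its rank by p was 18 among all tested genes (edgeR's quasi-likelihood test, adjusted p = 0.000161). Pentanoate against control stood at −0.21 (−0.43 to 0.01, adjusted p = 0.387).

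Actg2, smooth muscle gamma-actin, measured 338, 338 and 274 CPM in control, 164, 174 and 131 with butyrate and 307, 320 and 255 with pentanoate. The butyrate libraries were again the lowest 3, and the other groups overlapped. It fell by 50.6% with butyrate, a log2 change of −1.02 (−1.32 to −0.72, edgeR, adjusted p = 0.0012). Pentanoate against control stood at −0.11 (−0.40 to 0.19, adjusted p = 0.749).

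Between the 2 smooth muscle actins there were 11.6, 11.1 and 12.3 Acta2 counts per Actg2 count in control, 10.8, 9.43 and 11.4 with butyrate and 11.0, 9.94 and 11.6 with pentanoate. The log2 ratio of Actg2 to Acta2 differed by 0.15 between butyrate and control (exact permutation test, p = 0.2, p = 0.4 adjusted over 12 ratio tests), and the groups overlapped. The library numbered 2 had the fewest Acta2 counts per Actg2 count in every group.

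Acta1, skeletal alpha-actin, was a rare transcript, with 193, 184 and 185 counts in control (11.2, 10.3 and 11.99 CPM), 32, 38 and 23 with butyrate (1.88, 2.30 and 1.39 CPM) and 169, 177 and 117 with pentanoate (8.74, 9.76 and 6.45 CPM). No library of 1 group overlapped another group. With butyrate it fell by 83.3%, a log2 change of −2.59 (−3.08 to −2.09, edgeR, adjusted p = 0.000161, rank 19 by p). Pentanoate against control stood at −0.42 (−0.86 to 0.01), not called (adjusted p = 0.374), although every pentanoate library lay under every control library.

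Actc1, cardiac alpha-actin, had 65, 28 and 53 counts in control (3.78, 1.56 and 3.43 CPM), 13, 3 and 4 with butyrate (0.764, 0.181 and 0.241 CPM) and 39, 16 and 11 with pentanoate (2.02, 0.883 and 0.606 CPM). Butyrate and control did not overlap, while pentanoate overlapped both. Its log2 change with butyrate was −2.85, with a wide interval of −4.19 to −1.52 (edgeR, adjusted p = 0.0128). The call was lost without butyrate 2 (adjusted p = 0.0634) or butyrate 3 (0.0624). Actc1 reached the 0.577 CPM of the count filter in 1 of 3 butyrate libraries and in all control and pentanoate libraries, so it was tested through the groups where it was higher. With pentanoate it stood at −1.31 (−2.46 to −0.16, adjusted p = 0.315).

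Of the cytoplasmic actins, Actg1 measured 3328, 3664 and 3451 CPM in control, 2701, 2892 and 2387 with butyrate and 3391, 3571 and 2983 with pentanoate. The butyrate libraries lay below all others, by a far smaller step than for the muscle actins. It fell by 23.6% with butyrate, a log2 change of −0.39 (−0.61 to −0.16, edgeR, adjusted p = 0.034). That call was lost with upper-quartile scaling (adjusted p = 0.051), without control 1 or 2 (0.0727 and 0.0771), without any 1 butyrate library (0.0596 to 0.169) and without pentanoate 1 or 2 (0.0604 and 0.051), while the replicate block gave adjusted p = 0.00357. Pentanoate against control stood at −0.07 (−0.30 to 0.16, adjusted p = 0.785).

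Actb, often used as a reference gene, measured 4914, 5764 and 4738 CPM in control, 4189, 4836 and 3807 with butyrate and 5187, 5330 and 4810 with pentanoate. Butyrate 2 lay above control 3, so the groups overlapped. The log2 change with butyrate was −0.26 (−0.51 to −0.02), not called without a block (edgeR, adjusted p = 0.166) and called with the replicate number as a block (−0.27, adjusted p = 0.0189). With pentanoate it was −0.01 (−0.26 to 0.24, adjusted p = 0.981), a sign that turned with the scaling by upper quartile (0.0062) or library totals (0.0143).

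**Figure D2:**
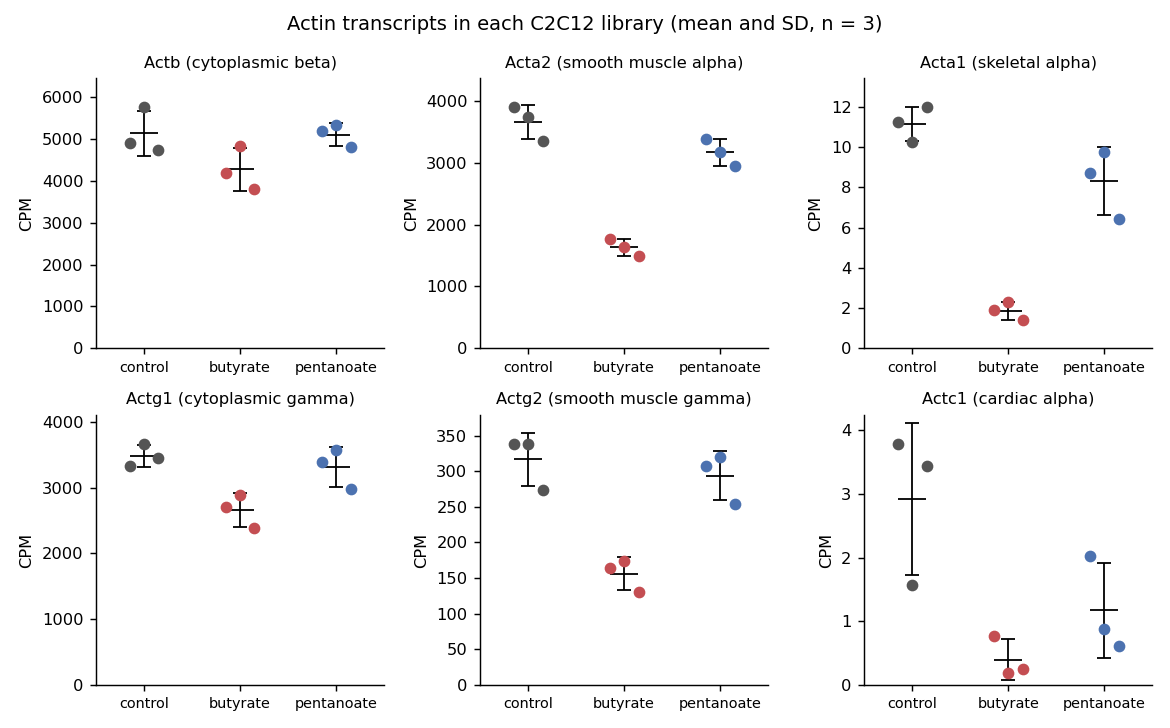
CPM (y axis, linear, from 0) of each actin gene in the 9 libraries by group (x axis). Points are libraries 1 to 3 from left to right, and bars give the mean and SD of 3 libraries. The butyrate points of Acta2 (1487 to 1771), Actg2 (131 to 174) and Acta1 (1.39 to 2.30) lie below every other point, while those of Actb reach into the control range.

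Counted over the family, butyrate against control gave 5 of 6 members called lower and none higher, where 11.4% of all tested genes were called, 4.95% lower and 6.43% higher. All 6 were called lower with the replicate block, which called 9.95% of all genes lower and 10.8% higher. The same 5 members had no overlap between the groups, against 14.9% of tested genes with no overlap and lower butyrate values. Without Actc1, which passed the count filter through the groups where it was higher, both counts were 4 of 5. Pentanoate against control gave 0 of 6 by edgeR, where 0.803% of all genes were called (0.0213% lower, 0.782% higher), and 0 of 6 by DESeq2. The replicate block also gave 0 of 6, and it called 0.647% of all genes lower and 3.01% higher. Before adjustment, 1 of the 6, Actc1, had a p under 0.05 in edgeR's quasi-likelihood test. Acta1 was the 1 member with no overlap between these groups, and 9.12% of tested genes had no overlap and lower pentanoate values. Within each of the 3 same-numbered pairs, pentanoate lay below control for Acta2, Actg2, Acta1 and Actc1, and the blocked fit, which uses these pairs, gave adjusted p = 0.0897, 0.347, 0.179 and 0.0643 for them. The share of all tested genes that lay below control in all 3 pairs was not computed, so nothing particular to the actins is read from this.

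With pentanoate against butyrate, 3 of 6 were called higher, where 3.42% of all genes were called, 1.81% higher and 1.61% lower. The libraries of 4 members (Acta1, Acta2, Actg2 and Actg1) did not overlap, against 15.7% of tested genes with no overlap and higher pentanoate values. Both acids were given at the same dose and time, so this compares chains that differ by 1 carbon. Acta1 was 4.47-fold higher with pentanoate (log2 2.16, 95% interval 1.67 to 2.66, edgeR, adjusted p = 0.00197). Acta2 was 1.94-fold higher (0.96, 0.74 to 1.18, adjusted p = 0.00197) and Actg2 1.88-fold (0.91, 0.61 to 1.21, adjusted p = 0.00781). For Actc1 the interval reached from 0.14 to 2.96 (adjusted p = 0.237), for Actg1 from 0.09 to 0.54 (adjusted p = 0.129) and for Actb from 0.01 to 0.51 (adjusted p = 0.272). With the block 5 of 6 were called higher, with Actg1 and Actb added (adjusted p = 0.0185 and 0.0333), where the block called 6.12% of all genes higher and 4.42% lower. This comparison and that of butyrate with control share the butyrate libraries.

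**Figure D3:**
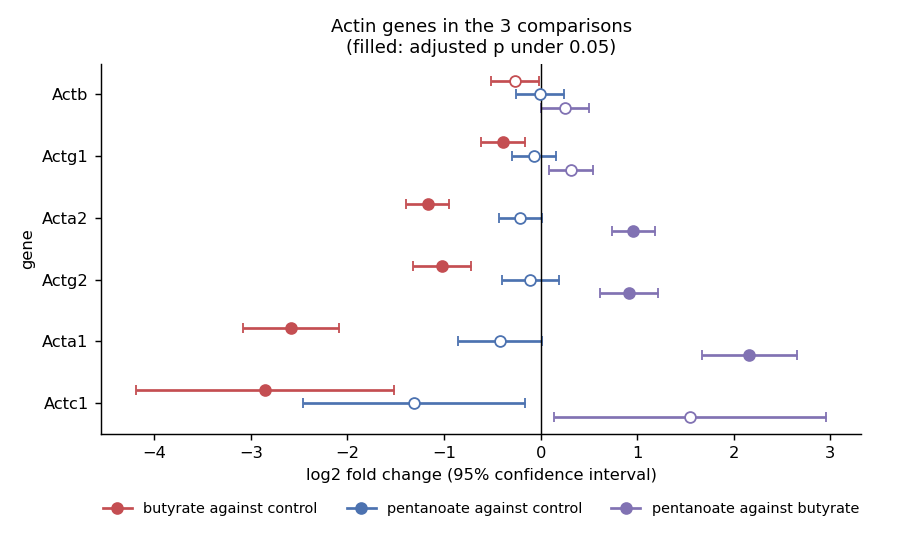
Fitted log2 fold change (x axis) with 95% confidence interval of each actin gene (y axis) in the 3 comparisons. Filled points have an adjusted p under 0.05, which 5 genes have for butyrate against control, none for pentanoate against control and 3 for pentanoate against butyrate.

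Summing paralogues takes the split of reads within a class out of the values. The 4 muscle actins counted as a single gene fell by 55.2% with butyrate, a log2 change of −1.16 (−1.39 to −0.93, edgeR, adjusted p = 0.000195). They stood at −0.20 with pentanoate (−0.43 to 0.02, adjusted p = 0.411) and were 1.94-fold higher with pentanoate than with butyrate (adjusted p = 0.00224). This sum is almost wholly Acta2 and Actg2, since Acta1 and Actc1 made up 0.289–0.422% of its counts in the control libraries, 0.1004–0.136% in the butyrate libraries and 0.219–0.303% in the pentanoate libraries. The 2 cytoplasmic actins counted as a single gene stood at −0.31 with butyrate (−0.55 to −0.08, adjusted p = 0.0898, and 0.00683 with the block) and at −0.03 with pentanoate (−0.27 to 0.20, adjusted p = 0.915). Between the acids they stood at 0.28 (0.04 to 0.52, edgeR, adjusted p = 0.201, and 0.0205 with the block).

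The balance of muscle to cytoplasmic actin needs no scaling between libraries, since it is a ratio within each. Muscle actins were 34.1%, 30.3% and 30.9% of all actin counts in controls 1 to 3, 21.9%, 19.1% and 20.7% with butyrate and 30.2%, 28.3% and 29.2% with pentanoate. None of the groups overlapped, although the highest pentanoate and the lowest control library lay within 0.1 percentage points. On the log2 scale and per kilobase the ratio was −0.51 ± 0.13 in control, −1.35 ± 0.13 with butyrate and −0.67 ± 0.07 with pentanoate (SD, n = 3 each). The differences of −0.84, −0.17 and 0.67 for the 3 comparisons each had p = 0.1 in the exact two-sided permutation test, the smallest it can give. The difference between pentanoate and control was −0.09 without control 1, and over all omissions of 1 library it ran from −0.22 to −0.09, with exact p from 0.1 to 0.3.

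The log2 ratio of Acta1 to Acta2 differed by −1.16 between butyrate and control, with no overlap of libraries (−8.30 ± 0.20 in control and −9.45 ± 0.22 with butyrate, exact permutation test, p = 0.1, p = 0.4 adjusted over 12 ratio tests). For Actc1 to Acta2 the difference was −0.75 with overlapping groups (exact p = 0.2, adjusted 0.4). These ratios use CPM plus 0.5, which pulls low values together, and with CPM plus 0.1 the differences were −1.38 and −1.53. Between the cytoplasmic actins the control libraries had 1.37 to 1.57 Actb counts per Actg1 count, the butyrate libraries 1.55 to 1.67 and the pentanoate libraries 1.49 to 1.61. The log2 ratio of Actg1 to Actb differed by −0.13 between butyrate and control (exact p = 0.2, adjusted 0.4).

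**Figure D4:**
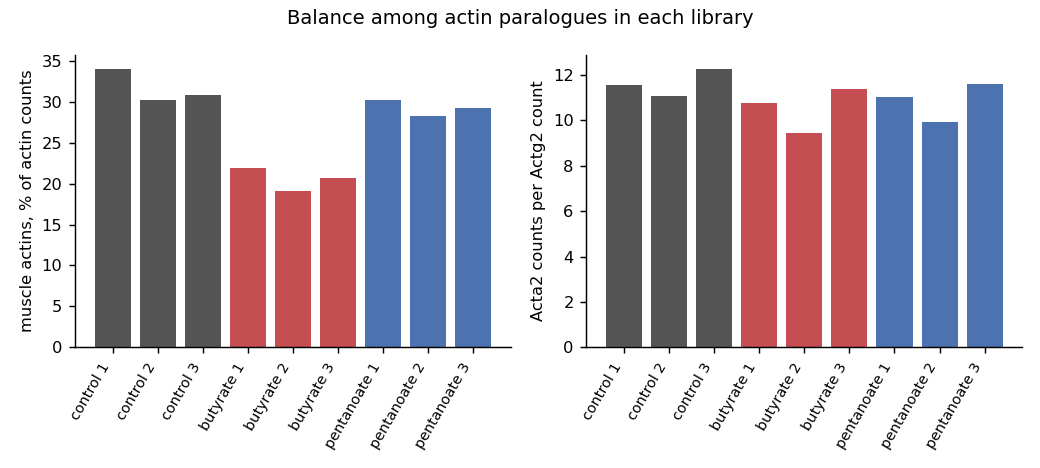
Left, counts of the 4 muscle actins as % of all actin counts in each library. Right, Acta2 counts per Actg2 count in each library. The butyrate libraries hold 19.1% to 21.9% muscle actin against 28.3% to 34.1% in the other 6, while the right-hand ratio lies between 9.43 and 12.3 in all 9.

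Genes with a pattern most like each actin over the 9 libraries were found by the root mean square difference of mean-centred log2 CPM, among 10094 or 10095 protein-coding genes with at least 5 CPM. The nearest to Acta2 was Fhod3 (0.0702), a formin of muscle thin filaments, then Olfml2b (0.103), Cdk5r1 (0.108) and Actg2 (0.111). For Actg2 they were Cdk5r1 (0.0753), Fhod3 (0.0860), Acta2 (0.111) and Myod1 (0.111). For Acta1 they were Adam12 (0.394), Aoc3 (0.398), Cxcr4 (0.428) and Dusp27 (0.452), and for Actc1 C1qtnf3 (0.409), Lix1 (0.456), Ttn (0.585) and Cxcr4 (0.601). The nearest to Actb was Wdr1 (0.0550), a cofactor of actin disassembly, followed by Sbf1, Dxo and Ten1 (0.0645 to 0.0665). The nearest to Actg1 was Wrb (0.0327), followed by Wsb2, Tmcc1 and Rubcn (0.0542 to 0.0628). Actb and Actg1 lay at 0.0784 from each other. The libraries are shared by all genes, so these distances are a description.

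The genes that act on actin were read from lists that name 7 classes. Each count stands beside 6.43% of all tested genes called higher and 4.95% called lower with butyrate, or 10.8% and 9.95% with the block, and nothing particular to a list is read from it. With butyrate against control, 1 of 10 tested SRF and MRTF axis genes was called higher, Elk3 (0.28, edgeR, adjusted p = 0.0296), and none lower, with a median of −0.17 beside −0.02 for all genes. With the block 2 were higher (Elk3 and Ablim1) and 2 lower (Elk4 and Srf). Srf itself stood at −0.32 (edgeR, adjusted p = 0.249, and 0.0305 with the block). Of the monomer binding and turnover genes 4 of 25 were higher and 4 lower (median −0.07). The 4 of smallest p were Dstn, the depolymerizing factor destrin (−0.67, adjusted p = 0.00521), the cofilin phosphatase Ssh3 (1.25, 0.00815), the actin oxidase Mical1 (−0.53, 0.0167) and the cofilin kinase Limk2 (−0.43, 0.0171). Cap2, also called lower, had a butyrate mean of 0.179 CPM, under the 0.577 CPM of the count filter, and 0.637 in control. It was tested through the groups where it was higher, so its call supports nothing about the list. Of the capping and severing genes 2 of 14 were lower, Lmod1, a leiomodin that nucleates filaments in smooth muscle (−1.10, adjusted p = 0.00256), and Svil, which encodes supervillin (−0.49, 0.00555), and the median was −0.03.

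For the Arp2/3 complex, which branches filaments, 2 of 10 were lower, Actr3 (−0.41, edgeR, adjusted p = 0.00916) and Arpc5 (−0.40, 0.0187), with a median of −0.14. Formins and other nucleation factors had 2 of 20 higher and 2 lower (median −0.09). Fhod3 stood at −1.09 (adjusted p = 0.00058) and Daam2 at −0.62 (0.0105), both formins, while the nucleator Spire2 stood at 1.82 (0.0119) and the formin Fmnl1 at 1.21 (0.032). Of the folding and maturation genes 1 of 18 was higher, Cct2, a subunit of the chaperonin that folds actin (0.36, adjusted p = 0.024), with a median of −0.0040. None of 7 tested actin-related proteins was called by edgeR or with the block, and Actr8 had the smallest p (−0.18, adjusted p = 0.421). With the block the monomer binding list had 5 higher and 6 lower, the capping list 1 higher and 2 lower, the Arp2/3 list 1 higher and 3 lower, the formin list 3 higher and 5 lower, and the folding list 2 higher and none lower. The higher Arp2/3 gene was Actr3b, at a mean of 0.475 CPM in control, under the 0.577 CPM of the count filter, and 1.46 with butyrate. Actr3b was tested through the groups where it was higher, so its call supports nothing about the list.

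**Figure D5:**
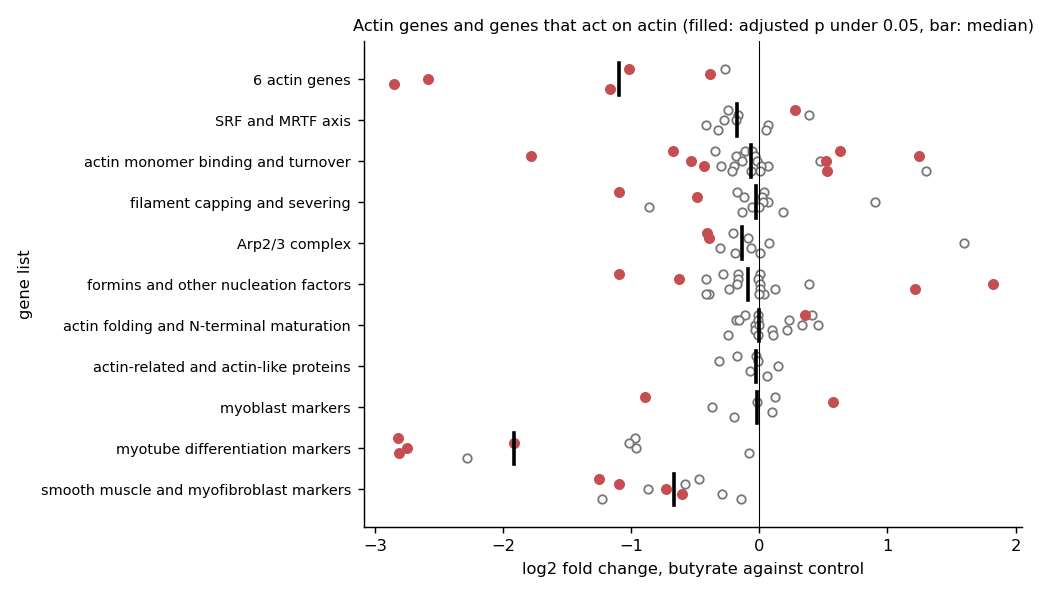
Log2 fold change with butyrate against control (x axis) of each tested gene of the 6 actins and of 10 gene lists (y axis). Filled points have an adjusted p under 0.05 and the vertical bar is the list's median, which is −1.91 for myotube markers, −0.67 for smooth muscle markers and between −0.17 and 0 for the other 8 lists.

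Some markers of differentiation and of smooth muscle were called lower with butyrate, as the muscle actins were. The counts below stand beside 4.95% of all tested genes called lower and 6.43% called higher with butyrate. With the block these shares were 9.95% and 10.8%. Of the myotube differentiation markers 4 of 9 tested were lower with butyrate, Mymk, Tnnt1, Myog and Myh3 (log2 −2.82 to −1.91, edgeR, adjusted p = 0.00201 to 0.0369), and none higher, with 6 lower under the block and a median of −1.91 over those tested. The butyrate means of Mymk (0.575 CPM), Myog (0.573 CPM), Myh3 (0.277 CPM) and Mymx (0.198 CPM) lay under the 0.577 CPM of the count filter. These genes were thus tested through the groups where they were higher, and the counts and median support nothing about the list. Mymx was called lower only under the block. Tnni1 stood at −0.08 (adjusted p = 0.912). The 14 listed markers had a summed level between 20.9 and 47.2 CPM in the control libraries, between 7.49 and 12.4 in those with butyrate and between 18.3 and 35.9 in those with pentanoate. Of the smooth muscle and myofibroblast markers 4 of 10 tested were lower, Cnn1, Lmod1, Tpm2 and Synpo2 (−1.25 to −0.60, adjusted p = 0.000731 to 0.0223), and none higher, with 8 lower under the block and a median of −0.67. Lmod1 is also on the capping list. The 11 listed had a summed level of 2006–2419 CPM in the control libraries, 1743–1831 in butyrate and 2052–2290 in pentanoate libraries. Of the myoblast markers Myod1 was lower (−0.89, adjusted p = 0.00828) and Myf5 higher (0.57, 0.0279) among 7 tested (2 lower with the block), and the 8 listed summed to 1206 to 1793, 1371 to 1673 and 1492 to 1841 CPM in the 3 groups. The part of any shift in cell state in the actin values was not tested, and in bulk RNA fewer cells with muscle actin and less of it per cell cannot be told apart.

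Markers of other cell types were low, and their sums were higher in every butyrate library than in any other. The 8 blood cell markers summed to 1.49–1.92 CPM in the control libraries, 2.35–3.56 in the butyrate and 1.60–1.93 in the pentanoate libraries, with Adgre1 at 0 in all, and 0 of 2 tested were called (Cd68 at 1.07, edgeR, adjusted p = 0.0539, and 0.0409 with the block). The 9 endothelial and epithelial markers summed to 0.972–1.75 CPM in the control, 2.30–2.70 in the butyrate and 1.10–1.71 in the pentanoate libraries, with Kdr and Epcam at 0 in all, and the single tested gene, Cdh1, was not called. These sums are of the size of the Acta1 level with butyrate, 1.39 to 2.30 CPM, and their part in the actin values was not tested.

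With pentanoate against control, none of the 12 lists had a called gene by edgeR, and with the block 1 was, Ssh3 (adjusted p = 0.0267). The genes of smallest p in each list, Elk3, Ssh3, Tmod3, Actr3, Daam1, Cct6a, Actr10, Myf5, Mymx, Cnn1, Csf1r and Cdh1, had adjusted p from 0.0591 (Ssh3) to 0.875 (Cdh1). With pentanoate against butyrate, the genes called higher were Mical1 (0.59), Lmod1 (1.32), Svil (0.42), Fhod3 (0.85), Daam2 (0.68), Myod1 (0.82), Mymk (2.82) and Cnn1 (0.95), all by edgeR (adjusted p = 0.00449 to 0.0304). Over all tested genes 1.81% were called higher and 1.61% lower. The folding genes Cct2 (−0.44) and Cct8 (−0.38) were called lower (adjusted p = 0.0235 and 0.0426). Ablim1, Arpc5, Actr10, Cd68 and Cdh1 had the smallest p in the lists with no call (adjusted p = 0.11 to 0.538). With the block, 5 of 9 myotube and 8 of 10 smooth muscle markers, 3 of 25 monomer-binding genes and 2 of 7 myoblast markers were called higher. None of these lists had a lower call. Over all tested genes the block called 6.12% higher and 4.42% lower. Mymk, Myog and Myh3 were tested through the groups where they were higher. Their calls here, that of Mymk by edgeR included, support nothing about the myotube list. The block called 3 higher and 2 lower on the formin list, 3 higher and 1 lower on the capping list, 1 higher and 1 lower on the SRF axis, and 4 folding genes lower and none higher. On the SRF axis the higher gene was Srf (0.33, edgeR, adjusted p = 0.34, and 0.0366 with the block) and the lower was Ablim1.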

How the data were processed

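RNA-seq was done on 9 libraries in 3 groups of 3, assigned by the labels' titles. Per the labels' protocols, Trizol was used to extract total RNA, and a SMARTER mRNA-Seq kit for the libraries. The authors deposited raw counts per gene with gene lengths, and per the submitters' processing notes the build was GRCm38 (mm10). No source used here states the aligner, counting program or strand setting. Lines that carry no Ensembl identifier held 0.0918% to 0.107% of counts and were kept.

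Counts were tested as deposited with edgeR 4.0.16 (glmQLFit, robust; R 4.3.3), TMM scaling, filterByExpr and all 9 libraries in 1 fit, with Benjamini-Hochberg adjustment over 14066 genes and a threshold of 0.05. Standard errors were derived from the F values, so intervals are approximate. DESeq2 1.42.0 was an alternative. Ratios within libraries used exact permutation tests over samples. Scripts were tested on simulated data.

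Members and lists were chosen with earlier results of these data known. Named genes are all 6 actins, the called genes of each list up to the 4 of smallest p (otherwise the 1 of smallest p), and the 4 genes nearest to each actin. Some further list genes, such as Cap2, Mymx, Actr3b and Srf, are named for a limit or a blocked call. Same-numbered libraries correlated in their deviations from group means (r = 0.201 to 0.414 in 9 pairs, above the criterion of 0.1, and −0.332 to 0.0133 in 18 other pairs), so a blocked fit (replicate number added as a factor) is given where it changes a call. Windows and alignments used GENCODE M21 transcripts, and promoters came from RefSeq GRCm38.p6.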

Additional observations from a re-analysis of the deposited data

How the results depend on the processing

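The falls of Acta1, Acta2, Actg2 and the summed muscle actins with butyrate, and their higher values with pentanoate than with butyrate, kept direction and call under all 16 alternatives: 3 scalings, 2 filters, the replicate block, DESeq2's Wald test and each library left out. For Acta2 with butyrate these gave −1.22 to −1.10. The number of actin genes called for butyrate against control was 3 to 5 over the omissions of single libraries, with 3 without butyrate 2 or butyrate 3, and 0 for pentanoate against control throughout. For pentanoate against butyrate it was 5 with the replicate block and 3 to 4 over the omissions. The summed cytoplasmic actins with butyrate were called with the block (−0.32, adjusted p = 0.00683), by DESeq2 (−0.30, adjusted p = 0.0461) and without control 3 (adjusted p = 0.0459), with −0.39 to −0.23 over the omissions. Between the acids they were called with the block (0.28, adjusted p = 0.0205). With pentanoate against control they ranged from −0.0757 to 0.0420 over the omissions, a sign that turned without control 2 or pentanoate 3. Actb in that comparison turned sign with upper-quartile scaling (0.0062), library totals (0.0143), the filter at a mean of 5 CPM (0.0086), and without control 2 or pentanoate 3 (−0.0551 to 0.0880 over the omissions). The ratio of Actc1 to Acta2 between the acids was −0.10 and turned to 0.42 with CPM plus 0.1 (−0.39 to 0.12 over the omissions), and that of Actg2 to Acta2 was −0.110 to 0.0294 over the omissions. For within-library ratios the replicate block leaves the difference of means unchanged, so it could turn no direction. Its exact paired sign-flip test cannot go below p = 0.25. With the M21 lengths, chosen after the data were seen, the muscle to cytoplasmic ratio differed by −0.84 with butyrate. Actc1 was left out by the filter at a mean of 5 CPM. Apart from the calls named here and in the text, the block changed no call of an actin gene. The causes of these shifts were not tested. With 3 libraries per group, exact tests over samples cannot pass 0.05, and the counts of Actc1 with butyrate (3 to 13 per library) limit its fold.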
